A study of Mus musculus with 2 samples.

Results

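The cells described here were CD4 T cells of the mouse RPE/choroid, the pigment epithelium behind the retina together with the vascular layer under it, kept for carrying Cd4 and at most a trace of effector genes. A barcode was taken when it had at least 1500 UMIs (unique molecular identifiers, each counting 1 captured transcript) and 200 genes, a Cd3d, Cd3e and Cd3g sum of at least 2, at least 1 Cd4 UMI, no Cd8a or Cd8b1, at most 1 UMI in all of Cxcr6, Trdc, Tcrg-C1, Cxcr3 and Icos, no Cd79a and at most 1 Lyz2. It left 139 of 3377 barcodes that passed the UMI and gene minimums, 65 of 1530 in the flox library and 74 of 1847 in the knockout library, which is 4.25% (95% Clopper-Pearson interval 3.29 to 5.38) and 4.01% (3.16 to 5.00). Of the barcodes past the Cd3, Cd79a and Lyz2 conditions they were 19.3% of 337 and 20.5% of 361. The genes of this rule describe the selection and are no result, and all intervals here cover counting error only.

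The study compared droplet single-cell libraries of RPE/choroid from mice 10 weeks old, with 1 library per genotype and each library pooled from 1 male and 1 female. Both groups carried the floxed Tsc1 allele Tsc1tm1Djk/J, and Tsc1 encodes a brake on the growth kinase complex mTORC1. The first group, Tsc1 flox, had no Cre listed. The second, Tsc1 RPE KO, also carried Best-Cre, which the labels describe as specific to the RPE, so that the T cells are not the labelled target of the deletion. With 1 library per genotype no test between genotypes is possible, and genotype, animals, sex balance and library cannot be told apart. The eye cups were freed of neuroretina and enzyme-digested, and live cells were sorted without a T cell marker.

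As background, CD4 T cells recognise peptides on MHC class II and help other immune cells. Before they meet antigen, naive CD4 T cells circulate through lymph nodes, which they enter with the help of the chemokine receptor Ccr7, and they live on interleukin-7 read through Il7r. The transcription factors Lef1 and Tcf7 hold the naive state, and the shear-responsive factor Klf2 keeps the egress receptor S1pr1 on. After activation, T cells lose much of this programme and take up adhesion molecules, S100 proteins, cytokines or cytotoxic granule proteins. In the choroid, which is rich in blood vessels, lymphocytes may sit in the tissue or in blood left in the vessels, and these cannot be told apart here.

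The gated cells carried 357297 UMIs in the flox and 371341 in the knockout library. The median per cell was 5419 UMIs and 1681 genes against 4852 UMIs and 1609 genes, and mitochondrial transcripts took 2.16% and 2.14%. Whole libraries held 10771118 and 12574364 UMIs. No gated barcode occurred in both libraries, and 2 of all barcodes past the minimums did. Scrublet marked 1 gated barcode in each library as a doublet. Free RNA was estimated from erythroid, RPE, rod and fibroblast transcripts. In 64 flox and 69 knockout gated cells, 97 and 68 such UMIs gave a free RNA share of 0.271% and 0.380%.

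The gate was clear-cut on its Cd3 side and thin on its Cd4 side. No gated barcode had a Cd3 sum under 3. Cd4 (chromosome 6, 124864692 to 124888221, mm10) gave 95 and 107 UMIs, 1 to 4 per cell in the flox and 1 to 3 in the knockout library, and 43 of 65 and 47 of 74 cells were held in by a single Cd4 UMI. Just outside stood 58 and 83 barcodes with no Cd4 and no Cd8, of which 82.8% and 80.7% had Lef1, against 90.7% and 87.2% of the cells with 1 Cd4 UMI. At the effector limit, 14 and 11 gated cells had 1 UMI of those genes, mostly Icos, and 5 and 3 barcodes outside had 2. As a measure of stray Cd4, 0 of 403 and 0 of 319 B cell barcodes (Cd79a of at least 2) had a Cd4 UMI. This allows shares of up to 0.911% and 1.15% by the Clopper-Pearson bound, at median depths of 3904 and 3882 UMIs. Among T cells with at most 1 UMI of the effector genes, 2 flox and 7 knockout barcodes held both Cd4 and Cd8. Beside them, 118 and 120 held Cd8 and no Cd4. Whether the Cd4 of the barcodes with both was stray was not tested.

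The defining markers were present in most of the cells. Lef1 (chromosome 3, 131110471 to 131224356) was found in 61 of 65 and 63 of 74 cells, at 0 to 10 UMIs with a median of 3 in both libraries. Il7r (chromosome 15, 9505788 to 9530176) was found in 59 and 62 cells, at 0 to 34 UMIs with a median of 4 in the flox and 0 to 26 with a median of 6 in the knockout library. Tcf7 was in 57 and 62 cells and Trac, the T cell receptor alpha constant region, in 60 and 69. Ccr7 was in 50 and 52 cells, with a median of 2 UMIs in both and a highest value of 8 and 6. The levels of these genes overlapped almost fully between the libraries, as the plot of counts by cell shows.

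**Figure D1:**
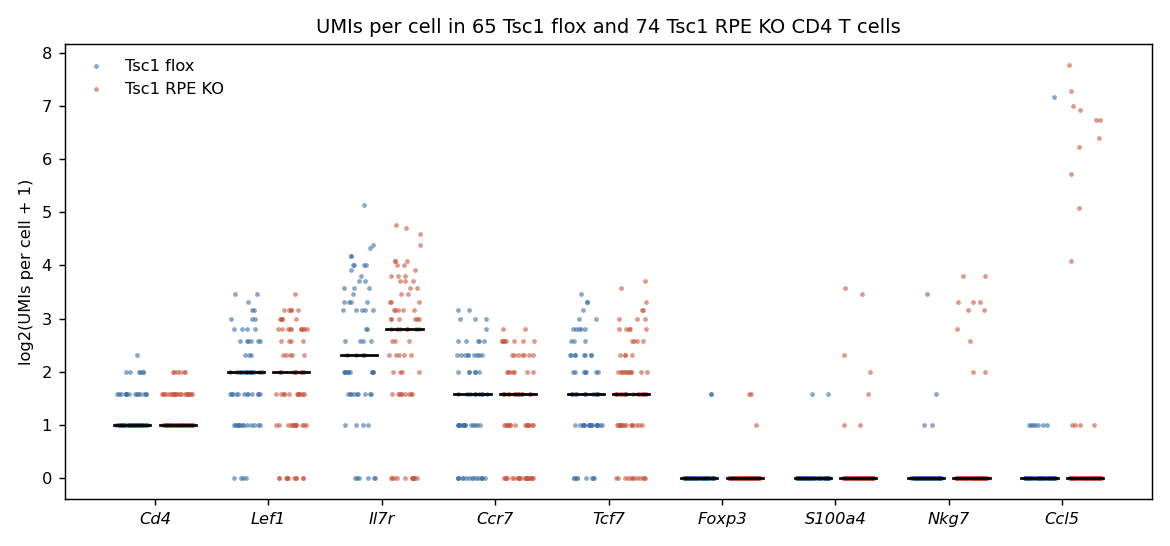
UMIs per gated cell on a log2(UMIs + 1) axis for 9 genes, each point 1 cell, by library, with the median as a black line. The Il7r medians are 4 and 6 UMIs, while Ccl5 and Nkg7 are at 0 in most cells and reach 142 and 10 UMIs in 1 flox cell and up to 218 and 13 UMIs in a group of knockout cells.

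A minority of the knockout cells went against the description "without effector markers", and they have to be set out before any comparison. Over a list of 21 cytotoxic and cytokine genes, 11 of 74 knockout cells (14.9%, 7.66 to 25.04) held 10 or more UMIs, against 1 of 65 flox cells (1.54%, 0.0389 to 8.28). This set was defined after the data were seen. The gap around the limit was wide: the flox cell held 155 UMIs of the list and the 11 knockout cells 35 to 247 (median 119), while no other gated cell held more than 3 in the flox or 2 in the knockout library. The main transcript was Ccl5 (chromosome 11, 83525778 to 83530518), a chemokine of effector and memory T cells, with 1088 of the 1092 knockout UMIs in these 11 cells. All 86 UMIs of Nkg7, a cytotoxic granule protein, and all 112 of Gzma, the protease granzyme A, also lay there.

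The Cd3 sum of these 11 cells, a condition of the gate, was 3 to 19 (median 9), and Trac was found in 9. One of the 11 was a barcode that Scrublet marked and that also held rod photoreceptor transcripts. Their Cd4 rested on 1 UMI in 7 of 11 cells (63.6%), against 63.5% of the other knockout cells. All 11 lacked Ccr7, 10 lacked Il7r, and 5 had Lef1. Il7r stood at 2 UMIs in the set against 517 in the other knockout cells, 40.5-fold lower (11.1 to 335), and Satb1, Ccr7, Dapl1 and Actn1 had no UMI in the set. Beside the cytotoxic genes, Lgals1 (galectin-1) was 25.1-fold higher in the set (16.5 to 39.5), the scaffold gene Ahnak 17.7-fold, the CD2 ligand gene Cd48 10.4-fold, the integrin gene Itgb1 10.0-fold and the regulator Id2 6.39-fold. Ribosomal protein genes stood lower, such as Rps20 by 4.98-fold. Some of these cells also held genes shared by natural killer cells and cytotoxic T cells. Klrd1, a killer lectin receptor gene, had 40 UMIs in 8 of the 11 cells, at up to 13 in 1 cell, and 3 UMIs in the other knockout cells. Of a list of 8 natural killer genes, 5 of the 11 cells held 10 or more UMIs and the highest 75, with Gzma at 112 and Klre1 at 16 of the 133 UMIs. Klrb1c had 3 UMIs, Tyrobp and Klrk1 1 each, and Ncr1, Klra4 and Klra8 0. Whether any of the 11 was a natural killer cell or a mixed barcode was not tested.

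The same measure was taken in the other gates of these libraries, which use the same T cell conditions. In T cells with Cd8, no Cd4 and at most 1 UMI of the effector genes, called the CD8 gate, 19 of 118 flox (16.1%) and 37 of 120 knockout cells (30.8%) held 10 or more UMIs of the list. In T cells with 2 or more UMIs of the effector genes, called the effector gate, they were 47 of 94 (50%) and 45 of 77 (58.4%). Of T cells without Cd4 and Cd8 they were 10.3% and 16.9%, and of B cells 0 of 403 and 1 of 319. A Cd8 transcript can be missed: of the cytotoxic cells in the CD8 gate, 1 of 19 and 3 of 37 had a single Cd8 UMI. The median Cd8 sum of these CD8 gate cells was 6 and 8 UMIs, and the highest 24 and 28. How many of the 11 knockout cells came from CD8 T cells with unseen Cd8 and stray Cd4 was not tested.

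**Figure D2:**
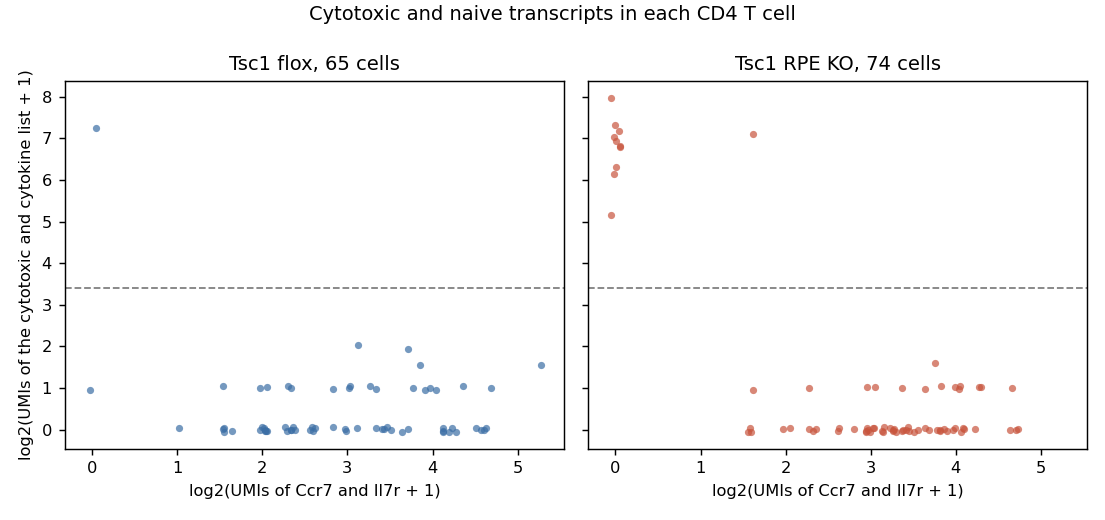
Each point is 1 gated cell, with summed UMIs of Ccr7 and Il7r on the x axis and summed UMIs of 21 cytotoxic and cytokine genes on the y axis, both as log2(UMIs + 1), 1 panel per library; points are jittered slightly and the dashed line separates cells with 10 or more UMIs. The 1 flox cell and the 11 knockout cells above the line lie at the left, with few or no UMIs of these naive genes, and no cell lies between 3 and 35 UMIs of the list.

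Further barcodes carried transcripts of other cell types. One flox barcode, with 11102 UMIs the largest of its gate and marked by Scrublet, held 25 UMIs of a myeloid list and 24 of a fibroblast list. It alone gave 107 of the 112 flox UMIs of Igfbp5, 32 of 38 of Egr1 and 37 of 69 of Jun. One knockout barcode, also marked by Scrublet and within the cytotoxic set, held 233 UMIs of rod photoreceptor genes, and also 70 UMIs of Gngt1. It and another 4 knockout cells of the cytotoxic set held 10 or more UMIs of the natural killer list. Elsewhere these lists were low: the B cell list summed to 61 and 52 UMIs, the RPE list to 5 and 13, the endothelial list to 30 and 29, the plasmacytoid list to 56 and 46, the erythroid list to 88 and 31, and the platelet list to 0 in both. The natural killer list summed to 11 and 139, the myeloid list to 124 and 102, the rod list to 6 and 259 and the fibroblast list to 27 and 1. Because these barcodes bear on many values, the comparisons are given for all gated cells and again "without both sets", leaving out the cells with 10 or more UMIs of another cell type list or of the cytotoxic list. That left 63 cells in each library, and this setting was added after the data were seen.

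Against the effector gate, the gated CD4 cells carried more of the naive genes. A gene was measured when it had at least 50 UMIs in each library, and it was counted when it differed at least 2-fold the same way in both. The minimum was taken over both gates, so a gene seen mainly in 1 gate could pass through that gate and then had to differ, and counts of list genes here describe the genes measured and no more. Of 2292 such genes 15 were higher in the CD4 cells (0.654%) and 102 lower (4.45%), together 5.1%, with medians of -0.17 and -0.23 on the log2 scale. Among 17 measured genes of a naive and central memory list, 7 were at least 2-fold higher in both libraries and 0 lower, and the list medians were 0.98 and 1.21 on the log2 scale. The effector gate was defined by effector genes in the same libraries, so this contrast shares its basis with the selection and is given as a description. That gate set no Cd4 or Cd8 condition, and 16 of 94 flox and 23 of 77 knockout cells in it had a Cd4 UMI. Lineage and effector state thus cannot be told apart in this contrast.

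Ccr7 and Igfbp4 ranked first among all genes of that contrast. Ccr7 had 155 UMIs in the CD4 cells and 68 in the effector gate of the flox library, 3.91-fold higher (2.92 to 5.28), and 143 against 41 in the knockout library, 4.53-fold higher (3.18 to 6.57). The insulin-like growth factor binding protein gene Igfbp4 was 10.3-fold higher (6.46 to 17.2) in the flox library, with 126 against 21 UMIs, and 8.96-fold higher (4.59 to 19.5) in the knockout library, with 69 against 10. Both genes were thus higher in each library alone.

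Nuclear regulators of the naive state followed. Lef1 was 2.35-fold (1.91 to 2.91) and 4.77-fold (3.62 to 6.34) higher, and the chromatin organiser gene Satb1 2.52-fold (2.04 to 3.13) and 3.15-fold (2.36 to 4.24). Tcf7, at 1.97-fold and 2.77-fold, and Klf2, at 1.77-fold and 2.17-fold, passed the limit in the knockout library alone. The cytoskeletal gene Actn1 was 3.90-fold and 3.89-fold higher and Dapl1 3.11-fold and 6.63-fold. Outside the list, Rflnb (4.17-fold and 3.74-fold), the phosphatase gene Dusp10 (4.39-fold and 5.41-fold) and the unnamed transcript Gm12840 (2.22-fold and 1.91-fold) ranked among the 12 highest. Ribosomal transcripts made up a median of 39.3% and 37.7% of the UMIs of a CD4 cell against 28.7% and 23.7% in the effector gate, and the part of this difference in the folds was not tested.

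Because 7 naive genes stood higher together, their promoters are shown as far as the RefSeq promoter table (GRCm38.p6, 250 bases before to 50 after each start) holds them. It holds 5 of the 7 genes with 12 start sites, namely Actn1, Dapl1, Igfbp4, Lef1 and Satb1. Ccr7 is named only. A forkhead motif GTAAACA, the site family that Foxo1 reads, a KLF motif CACCC and a TCF and LEF motif CTTTGAT were searched on both strands. The forkhead motif was in 1 of the 12 windows, that of Dapl1, the KLF motif in 9 windows of 3 genes (Igfbp4, Lef1 and Satb1), and the TCF and LEF motif in 0. Over all 32851 promoters of the table these letters occur in 3.65%, 57.5% and 3.73%. A match is a run of letters and says nothing of binding. The Dapl1 window (chr2:59484403-59484702, + strand) and the Igfbp4 window (chr11:99040994-99041293, + strand) are printed 5′ to 3′ because Igfbp4 had the widest fold of the 7 genes and Dapl1 holds the forkhead match, with the matches in capitals (GGGTG is CACCC read on the other strand).
Dapl1: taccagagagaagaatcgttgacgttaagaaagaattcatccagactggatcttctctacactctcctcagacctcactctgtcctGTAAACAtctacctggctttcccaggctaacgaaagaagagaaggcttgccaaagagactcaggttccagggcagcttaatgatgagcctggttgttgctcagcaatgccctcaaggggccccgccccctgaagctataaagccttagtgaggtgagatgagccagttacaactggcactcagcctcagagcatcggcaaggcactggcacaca
Igfbp4: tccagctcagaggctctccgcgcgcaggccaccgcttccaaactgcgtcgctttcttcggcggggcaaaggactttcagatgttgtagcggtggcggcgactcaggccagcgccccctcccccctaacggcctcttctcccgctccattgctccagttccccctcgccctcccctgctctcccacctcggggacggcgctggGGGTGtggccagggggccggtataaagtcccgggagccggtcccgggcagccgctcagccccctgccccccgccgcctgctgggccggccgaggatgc

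Genes of activation, memory and effector function were lower in the CD4 cells. In the memory and activation list 14 of 20 measured genes were at least 2-fold lower in both libraries and 0 higher, beside 4.45% and 0.654% of all measured genes. The list medians were -2.83 and -1.90 on the log2 scale. The calcium-binding protein gene S100a4 (chromosome 3, 90603771 to 90606045) had 4 UMIs against 742 in the effector gate of the flox library, 108-fold lower (42.0 to 398), and 32 against 684 in the knockout library, 16.5-fold lower (11.6 to 24.3). S100a6 was 38.0-fold and 25.3-fold lower, and Lgals3 had 1 UMI in each library against 106 and 73, a ratio of 0.0162 (0.000406 to 0.0922) and 0.0178 (0.000444 to 0.102). Cd44, the classical memory marker, had 4 against 67 and 10 against 61 UMIs. S100a4, S100a6, Lgals3 and Cd44 reached the 50 UMI minimum through the effector gate in both libraries, so that their direction followed from the minimum. The effector gate was itself chosen on effector genes, so the count of 14 describes the genes measured and no more. The knockout folds were the smaller ones for S100a4 and S100a6, and the difference between the libraries' folds was not tested.

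Effector cytokines and receptors had few UMIs in the CD4 cells. Of the 21 genes of the cytotoxic and cytokine list 7 were measured, and in the flox library all but Ccl5 passed through the effector gate, so that their direction there followed from the minimum. Ccl5 was lower by 14.7-fold and 2.45-fold, Gzma by 111-fold and 2.85-fold, and Nkg7 by 20.1-fold and 5.15-fold. Il17a, the cytokine of the Th17 and gamma delta lineages, had 0 UMIs in the CD4 cells of both libraries against 62 and 90, of which 54.8% and 84.4% came from 1 cell of the effector gate. Il2rb, an interleukin-2 and interleukin-15 receptor chain, had 1 against 136 and 9 against 111 UMIs. Ccr2 had 0 against 79 and 4 against 74, Fcer1g 1 against 76 and 1 against 86, and the replication gene Pclaf 0 against 79 and 0 against 78. Ctla2a, Klrk1, Ly6c2 and Hist1h2ap also ranked among the 12 lowest, the last with 86.0% and 60.3% of its effector gate UMIs in 1 cell. Without both sets 17 of 2169 genes were higher (0.784%) and 125 lower (5.76%), of which 14 and 97 were shared with the genes found over all gated cells. These cells were left out of the CD4 gate alone, which by construction widens the gap in cytotoxic genes.

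Against the CD8 gate the CD4 cells differed in few genes. Of 2468 genes measured, 11 were at least 2-fold higher in both libraries (0.446%) and 24 lower (0.972%), together 1.42%, with medians of 0.01 and 0.03 on the log2 scale. None of the 18 measured naive genes passed the limit in both libraries: Ccr7 was 1.13-fold higher in both, with intervals of 0.921 to 1.37 and 0.911 to 1.39. Igfbp4 differed between them, at a ratio of 3.25 (2.45 to 4.35) in the flox and 0.814 (0.604 to 1.09) in the knockout library. In the latter, 45.6% of its CD8 gate UMIs lay in 1 cell. Ly6c1, below the UMI minimum, had 24 against 1 and 14 against 2 UMIs. The plot of both ratios sets the 2 contrasts side by side.

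Of the genes higher in the CD4 cells the first in rank was Cd40lg (chromosome X, 57212143 to 57224042), the CD40 ligand with which helper T cells license B cells and dendritic cells. It had 55 UMIs in 35 of 65 CD4 cells and 6 UMIs in the CD8 gate of the flox library, 19.7-fold higher (8.48 to 55.9). In the knockout library it had 48 UMIs in 28 of 74 CD4 cells against 6, 15.1-fold higher (6.45 to 43.2). Trat1, a T cell receptor adaptor, was 5.84-fold (3.34 to 10.6) and 7.23-fold (3.77 to 15.0) higher, and Cd5, a surface brake on receptor signalling, 2.49-fold and 2.02-fold. The costimulatory receptor Cd28 was 1.87-fold and 1.89-fold higher. Zbtb7b, the factor that commits thymocytes to the CD4 lineage, fell below the UMI minimum and was singled out after its values were seen: 15 UMIs against 1 gave a ratio of 32.2 (4.95 to 1354) in the flox and 12 against 2 a ratio of 11.3 (2.52 to 104) in the knockout library.

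Others of the 12 highest had less lineage-bound roles. Ass1, an enzyme of arginine synthesis, was 2.84-fold and 3.25-fold higher, the pseudokinase gene Trib2 2.69-fold and 4.30-fold, the sodium pump subunit Atp1b1 2.86-fold and 3.35-fold, and the autophagy receptor gene Retreg1 2.42-fold and 2.71-fold. Tspan32, a tetraspanin gene, was 7.15-fold (3.95 to 13.7) and 2.54-fold (1.57 to 4.14) higher. The metabolic regulator Txnip (1.77-fold and 1.86-fold), Cytip (1.86-fold and 1.68-fold) and the interleukin-6 receptor gene Il6ra (1.999-fold and 2.70-fold) also ranked there.

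Among the genes lower than in the CD8 gate, several had no UMI or few in the CD4 cells. Ccr9, a homing receptor, had 0 UMIs in the CD4 cells of either library against 111 and 61. Plac8 had 0 against 105 and 3 against 70, Fam241a 16 against 222 and 11 against 191, and the surface gene Ly6c2 6 against 360 and 22 against 250. Of the 21 cytotoxic and cytokine genes 5 were measured, and in the flox library all but Ccl5 passed through the CD8 gate, so that their direction there followed from the minimum. Ccl5 was lower by 8.30-fold and 2.34-fold, Nkg7 by 13.7-fold and 3.59-fold, and Gzma by 65.5-fold and 4.68-fold. Gzmb had 0 against 65 and 8 against 98 UMIs, and the killer lectin receptor genes Klrd1 and Klrk1 had 5 against 256 with 43 against 300, and 4 against 47 with 1 against 58. Dcn, a fibroblast gene, also ranked there with 98.4% and 97.6% of its CD8 gate UMIs in 1 cell. Without both sets 10 of 2355 genes were higher (0.425%) and 35 lower (1.49%), with 8 and 23 shared with the genes over all gated cells. The CD8 gate kept its own 19 and 37 cytotoxic cells in this setting, so a wider gap in cytotoxic genes follows from its construction.

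**Figure D3:**
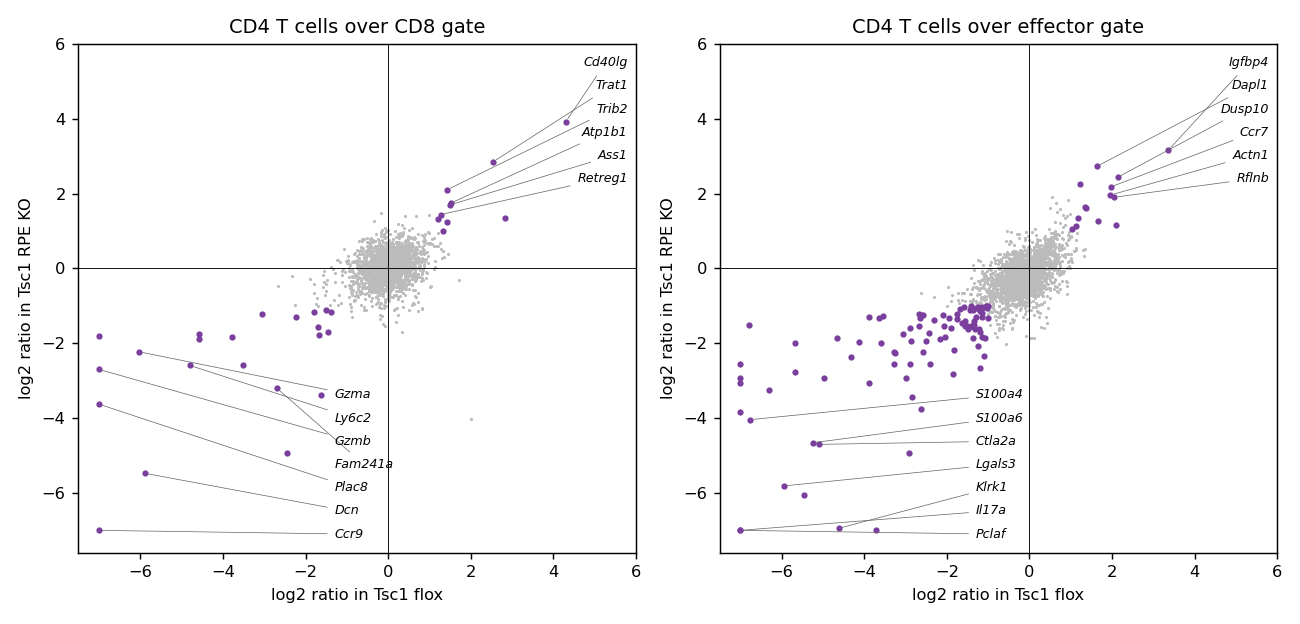
Log2 ratio of the gated CD4 cells over the CD8 gate (left) and over the effector gate (right), flox library on the x axis and knockout library on the y axis, each point 1 gene with enough UMIs; genes past 2-fold the same way in both libraries are purple, genes with no UMI in the CD4 cells are drawn at the lowest value and genes of the gate are left out. Cd40lg and Trat1 stand apart on the upper right against the CD8 gate, and the naive genes Igfbp4, Dapl1 and Ccr7 against the effector gate, where most purple points lie on the lower left.

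Between the libraries, the cytotoxic genes Ccl5, Gzma and Nkg7 and the memory genes Ahnak, Lgals1 and S100a11 were among the genes that stood higher in the knockout cells. Igfbp5, 58.2-fold lower, and Gngt1, 70.2-fold higher, had the widest ratios of the genes named, and nearly all of their UMIs came from 1 barcode each. A gene was measured when it had at least 50 UMIs over both, which held for 1834 genes, and it was counted past a 1.5-fold ratio. A gene seen mainly in 1 library could pass this minimum through that library, which then set its direction. Counts of list genes between the libraries thus describe the genes measured and no more. Of the 1834 genes 135 stood higher in the knockout library (7.36%), 76 lower (4.14%) and 211 either way (11.5%), with a median log2 ratio of 0.04. Scaled to UMIs outside ribosomal protein and mitochondrially encoded genes the counts were 117 and 107. Without the cells of another type list 108 of 1703 genes stood higher (6.34%) and 70 lower (4.11%), without the cytotoxic set 83 of 1652 (5.02%) and 86 (5.21%), and without both sets 85 of 1604 (5.3%) and 68 (4.24%). Tsc1 itself (chromosome 2, 28641228 to 28691167) had 6 UMIs in each library, 16.8 and 16.2 CPM (UMIs per 1000000 UMIs of the gated cells), which checks nothing about the RPE.

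Of the 21 cytotoxic genes 3 were measured between the libraries, and Nkg7 and Gzma reached the minimum through the knockout library, which set their direction. Ccl5 had 149 UMIs (417 CPM) in 8 flox cells and 1092 UMIs (2941 CPM) in 15 knockout cells, 7.05-fold higher (5.94 to 8.43). Nkg7 had 14 and 86 UMIs, 5.91-fold higher (3.34 to 11.3), and Gzma 3 and 112, a ratio of 35.9 (11.98 to 177). Without both sets Ccl5 had 7 and 4 UMIs, Nkg7 4 and 0 and Gzma 3 and 0. The 12 cells of the cytotoxic set were chosen on a list that holds these genes, so this fall follows from the choice. Ifng had 1 and 16 UMIs, its regulator Tbx21 1 and 14, and Gzmk, Il4, Il17a, Il10 and Il21 were at 0 in both libraries.

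Several memory and activation genes stood higher in the knockout library. Of 14 measured, 7 passed 1.5-fold higher, beside 7.36% of all measured genes, and 0 lower, 13 had a ratio above 1, and the median log2 ratio was 0.70 against 0.04 over all measured genes. The 7 were S100a10, Lgals1, Itga4, Ahnak, Itgb1, S100a11 and S100a6, where Itga4 and S100a6 are named after their values were seen. Lgals1, Ahnak, Itgb1 and S100a11 had under 50 UMIs in the flox library and reached the minimum through the knockout library, which set their direction. Without both sets 4 of 12 passed higher, beside 5.3% of all measured genes, 0 lower, and the list median was 0.37 against 0.02 over all measured genes. Cells of the cytotoxic set thus carried part of this difference.

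The genes of the list differed in how far their ratios moved without both sets. S100a11 had 27 UMIs (75.6 CPM) in 21 flox cells and 88 (237 CPM) in 35 knockout cells, 3.14-fold higher (2.02 to 5.02), and without both sets 24 and 73, 3.24-fold (2.02 to 5.38). S100a10, which partners annexin A2 at the membrane, had 112 and 257 UMIs, 2.21-fold higher (1.76 to 2.78), and without both sets 108 and 193, 1.91-fold (1.499 to 2.44). S100a4 had 4 UMIs in 2 flox cells and 32 in 7 knockout cells, too few to be measured by the rule. Without both sets it had 2 and 26, a ratio of 13.9 (3.47 to 121). Of those 26 knockout UMIs, 11 lay in 1 cell and 10 in another. Lgals1 was 4.28-fold higher (2.88 to 6.55) over all gated cells and 1.15-fold (0.649 to 2.04) without both sets. Ahnak was 5.44-fold (3.36 to 9.24) and then 2.46-fold (1.25 to 5.14) higher, and the integrin gene Itgb1 3.21-fold (2.07 to 5.13) and then 1.78-fold (1.01 to 3.21). The LIM protein gene Crip1, with most UMIs in the list, was 1.49-fold higher (1.25 to 1.78), below the limit, and 1.53-fold (1.26 to 1.84) without both sets.

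Most naive and central memory genes lay within 1.5-fold between the libraries. Of 18 measured genes 0 were past 1.5-fold higher and 2 lower, beside 7.36% and 4.14% of all measured genes. The median log2 ratio was -0.17, and 0.01 without both sets. Lef1 had 214 UMIs (599 CPM) and 246 (662 CPM), a ratio of 1.11 (0.917 to 1.33), and Il7r 437 (1223 CPM) and 519 (1398 CPM), a ratio of 1.14 (1.004 to 1.30). Without both sets they were 1.23 (1.02 to 1.49) and 1.29 (1.13 to 1.47). Ccr7 had 155 and 143 UMIs, and without both sets 148 and 143, at a ratio of 1.03. Klf2 had 584 and 694, Tcf7 186 and 213, S1pr1 166 and 205, and Satb1 219 and 165 UMIs, the last at a ratio of 0.725 (0.589 to 0.891).

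The naive genes past the limit were Igfbp4 and the survival factor gene Bcl2, both lower in the knockout library. Igfbp4 had 126 UMIs in 38 of 65 flox cells and 69 in 23 of 74 knockout cells, 1.90-fold lower (1.40 to 2.58), and 1.67-fold lower without both sets. Thinned to 1500 UMIs a cell, 27.7% of the flox cells and 14.9% of the knockout cells had it. Bcl2 had 115 and 70 UMIs, 1.71-fold lower (1.26 to 2.33), and 1.44-fold lower without both sets, below the limit.

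**Figure D4:**
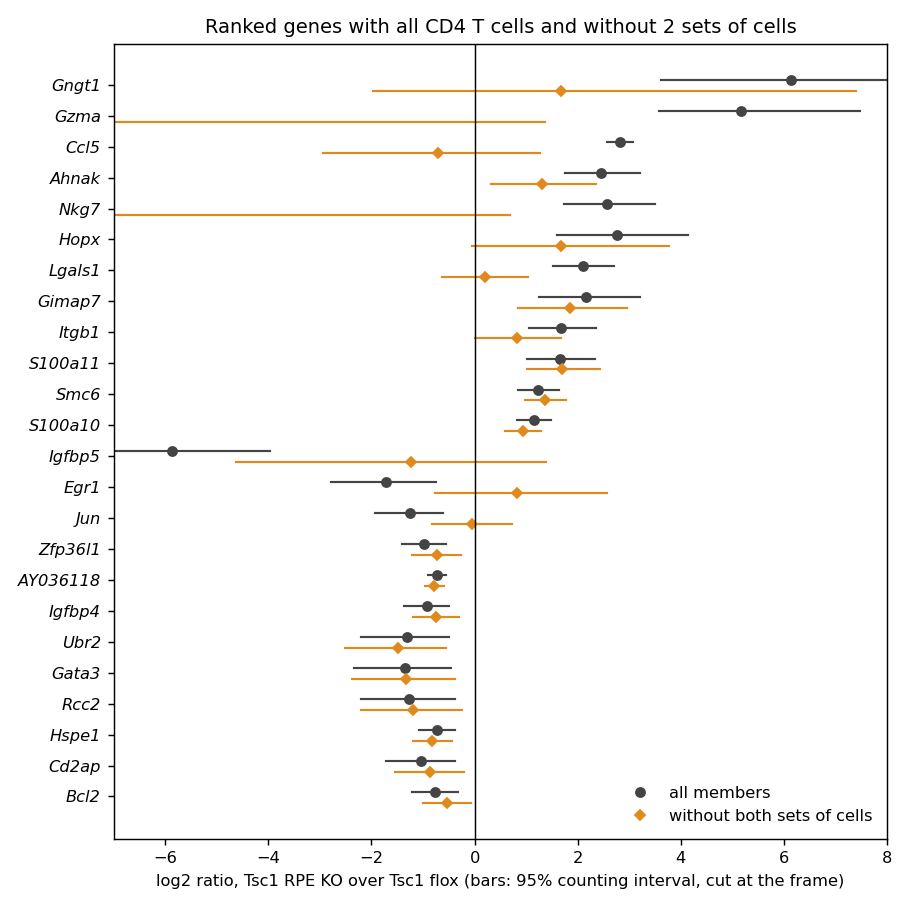
Log2 ratio of the knockout over the flox library in gated cells for the 12 genes ranked highest and the 12 ranked lowest, with 95% counting intervals, over all gated cells (black circles) and without both sets (orange diamonds); there is no diamond where a library had 0 UMIs, and intervals beyond the frame are cut there. Without both sets 9 of 12 higher and 11 of 12 lower genes kept their direction, and the intervals of 6 and 9 kept to that side of 1.

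Other genes ranked highest had mixed sources. Smc6, a subunit of the chromosome maintenance complex SMC5/6, had 79 and 193 UMIs in 41 and 58 cells, 2.35-fold higher (1.80 to 3.09), and 2.58-fold without both sets. Gimap7, a GTPase gene of lymphocytes, had 12 UMIs in 11 flox cells and 56 in 32 knockout cells, 4.49-fold higher (2.38 to 9.20), and 3.59-fold without both sets. Hopx, a homeodomain cofactor gene, had 7 and 49 UMIs, 6.74-fold higher. Without both sets it had 4 and 12, a ratio of 3.20 (0.970 to 13.6). Gimap7 and Hopx had few UMIs in the flox library and reached the minimum through the knockout library, which set their direction. Gngt1, a rod photoreceptor gene that the ranking did not leave out, had 1 and 73 UMIs, 70 of them in the rod-mixed barcode. Ranked anew without both sets, Atp2b1, a calcium pump gene with 31 and 74 UMIs, 2.55-fold higher, came behind S100a11 and Smc6.

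Among the genes ranked lowest, 3 rested largely on the mixed flox barcode. Igfbp5 had 112 and 2 UMIs and, without both sets, 5 and 2. Egr1 had 38 and 12, and then 6 and 10, and Jun 69 and 30, and then 32 and 29. Gata3, a T cell lineage factor gene, had 37 UMIs in 19 flox cells and 15 in 10 knockout cells, 2.56-fold lower (1.37 to 5.03), and 2.52-fold without both sets. Zfp36l1, an mRNA decay factor gene, had 140 and 74 UMIs, 1.97-fold lower (1.47 to 2.64), and 1.66-fold without both sets. The ubiquitin ligase gene Ubr2 was 2.48-fold lower, Rcc2 2.40-fold and the adaptor gene Cd2ap 2.04-fold, and without both sets 2.81-fold, 2.28-fold and 1.81-fold. The transcript AY036118, 1.66-fold lower with 724 and 454 UMIs, overlaps Gm42418 on the other strand, and its counts are uncertain.

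Of 9 measured heat shock genes 2, Hspe1 and Hsph1, passed the 1.5-fold limit lower in the knockout library, beside 4.14% of all measured genes, and 0 passed higher. The ratios of all 9 were below 1, and the median log2 ratio was -0.41. Without both sets 3 of 9 passed, beside 4.24% of all measured genes, and the median was -0.47. Hspe1, the mitochondrial chaperonin partner, had 179 and 112 UMIs (501 and 302 CPM), 1.66-fold lower (1.30 to 2.12), and 1.76-fold without both sets. It overlaps Hspd1 on the other strand, which had 73 and 57 UMIs, a ratio of 0.751 (0.522 to 1.08). The cytosolic chaperone Hsp90ab1 had 667 and 513 UMIs, a ratio of 0.740 (0.658 to 0.832), and Hsph1 48 and 30, 1.66-fold lower. The largest constitutive member, Hspa8, had 559 and 544 UMIs at a ratio of 0.936 (0.831 to 1.06).

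The other immediate response lists were mixed. Of 19 measured immediate early genes 3 stood lower, namely Egr1, Jun and Fos, and 0 higher, beside 4.14% and 7.36% of all measured genes. The median log2 ratio was -0.05. Without both sets Fos had 90 and 87 UMIs, and 0 of 17 measured members stood lower, beside 4.24% of all measured genes. Junb had 583 and 741 UMIs, Btg1 1115 and 989. Of 16 interferon response genes 1 stood lower, Trim30a, beside the same 4.14%, with a median of -0.02, and Ifi27l2a had 271 and 323 UMIs. None of 10 MHC class I genes, 12 mitochondrially encoded genes and 25 ribosomal protein genes passed the limit, with medians of 0.08, -0.05 and -0.12.

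Most T cell receptor and cytokine pathway genes lay within 1.5-fold. Over all measured genes 7.36% stood higher and 4.14% lower, and without both sets 5.3% and 4.24%. Of 15 measured genes of the receptor complex none passed the limit, with a median log2 ratio of 0.12. Of 17 signalling genes 1 stood higher and 1 lower. The higher one was Cd48, at 2.38-fold, and without both sets it had 32 UMIs in each library. Of 11 cytokine receptor and pathway genes the signal transducer Stat3 and the feedback inhibitor Socs1 stood 1.70-fold and 1.90-fold lower. Among 6 lineage factor genes 2 stood higher and 1 lower. Id2 was 2.69-fold higher and 1.72-fold without both sets, and Runx3 1.65-fold higher and 1.21-fold without them. Gata3 was 2.56-fold lower, and 2.52-fold without both sets. Of 14 trafficking genes 4 stood higher, Itga4, Itgb2, Itgal and S1pr4, and without both sets 0 of 12 did.

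Tsc1 restrains mTORC1, so genes of that pathway and of glycolysis, which it promotes, were listed although the T cells are not the labelled target. Of 8 measured mTORC1 pathway genes 1 stood higher, the lysosomal anchor Lamtor1, beside 7.36% of all measured genes. It had 18 and 38 UMIs, 2.03-fold (1.13 to 3.78), and the median log2 ratio of the list was 0.09. Without both sets none of 6 passed, and Lamtor1 was 1.66-fold higher (0.886 to 3.19) but no longer measured by the 50 UMI rule. Of 7 glycolysis genes 1 stood higher, the pyruvate kinase gene Pkm, beside the same 7.36%. Its ratio was 1.65 (1.15 to 2.39), and 1.44 (0.980 to 2.14) without both sets. Ldha had 121 and 158 UMIs and Gapdh 122 and 158. No cell cycle gene of 4 measured passed the limit, and Mki67 had 0 UMIs in both libraries.

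**Figure D5:**
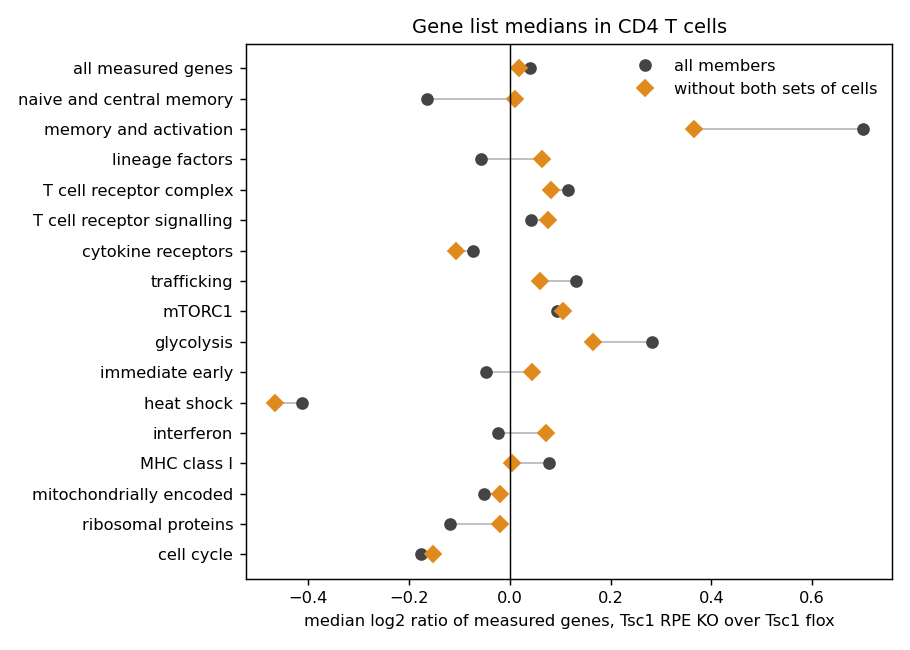
Median log2 ratio of the knockout over the flox library for each gene list, over all gated cells (black circles) and without both sets (orange diamonds); the cytotoxic list, with no gene measured without both sets, and the regulatory list, with 1, are left out. The memory and activation list moves from 0.70 to 0.37 and the heat shock list from -0.41 to -0.47, while the naive list moves from -0.17 to 0.01.

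Because each library pooled a male and a female mouse, cells could be parted by Xist and Y-linked transcripts. In the flox library 16 cells had Xist alone, 22 Y-linked transcripts alone, 1 both and 26 neither, and in the knockout library 30, 18, 0 and 26. Of the cytotoxic set, 7 of 11 knockout cells had Xist and 1 a Y-linked transcript, which is 23.3% of the Xist cells (9.93 to 42.3) and 5.56% of the Y cells (0.141 to 27.3). In the flox library 0 of 16 and 0 of 22 were in the set. Of the ranked genes, 10 of 12 higher and 9 of 12 lower ones had the same direction within the Xist cells and within the Y cells, and in both kinds of cell the intervals of 7 and 3 excluded 1. S100a11 was 3.61-fold and 4.59-fold higher and S100a10 2.21-fold and 2.62-fold. Hspe1 had a ratio of 0.544 and 0.520. The genes were ranked on these same cells, so a shared direction follows in part from the ranking and is given as a description. Each library pooled 1 male and 1 female, so each kind of cell came from 1 animal per library.

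Foxp3 transcripts were seen in few of the gated cells. Foxp3 (chromosome X, 7573644 to 7595245), the defining factor of regulatory T cells, which shares its strand and locus with Flicr, was seen in 2 of 65 flox cells (3.08%, 0.375 to 10.7) and 3 of 74 knockout cells (4.05%, 0.844 to 11.4), with 4 and 5 UMIs. It was in 0 of 403 and 0 of 319 B cells. A cell with no Foxp3 UMI may still express it, and the gate itself limits Icos, so these shares are no measure of how many regulatory T cells there were. Of the regulatory list, Ctla4 had 22 and 25 UMIs in 9 and 8 cells, Ikzf2 10 and 10, Il2ra 0 and 2. Izumo1r, which encodes folate receptor 4, had 24 and 35 UMIs in 14 and 17 cells, a ratio of 1.40 (0.811 to 2.47). Ctla4 was found in each of the Foxp3 cells, at 1 to 8 UMIs, and 1 knockout Foxp3 cell held 11 UMIs of S100a4.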

How the data were processed

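Single-cell RNA of RPE/choroid was measured in 2 libraries, 1 per genotype. The deposited files hold raw UMI counts per gene and barcode for all barcodes and not cells alone, made by the authors with Cell Ranger on mm10. The submitters' processing notes name version 2.1.1, while the file headers name software version 4, and which version made the counts is not settled here. Barcodes with at least 1500 UMIs and 200 genes were kept and gated on counts of named genes. Members and gene lists were chosen with earlier results of these data known.

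Counts were summed over the gated cells of a library, scaled to 1000000 UMIs (CPM) and compared as ratios with exact conditional binomial intervals at 95%. Levels have exact Poisson intervals and shares Clopper-Pearson ones. There is no test and no p-value between libraries, since each genotype has 1 library. A gene was measured at 50 or more UMIs over both libraries, or in each library against the other gates, and counted past 1.5-fold, or past 2-fold the same way in both libraries. The totals per library and the depth per cell are given with the results. For shares, cells were thinned to 1500 or 1000 UMIs. Doublets were marked with Scrublet in scanpy 1.11.5 and kept, except in 1 alternative. The summing and intervals were checked on simulated data. The software was Python 3.11.15, numpy 2.4.6, scipy 1.17.1, pandas 2.3.3 and matplotlib 3.10.9.

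The genes named were those of the gate with Tsc1 and Foxp3, up to 6 members of each list with most UMIs, the 12 highest and 12 lowest genes between libraries and against each gate ranked on whichever interval bound lay closer to 1, the 15 most variable genes, and up to 10 in each direction for Foxp3 cells. List members past the fold limit outside this rule, and genes of the cytotoxic set, were named after their values were seen. Results of some listed genes are not reported here. Coordinates came from GENCODE M21 on mm10, which matched 32158 of 32285 gene identifiers. Actn1, Ccr9, Foxp3, Gata3 and Rgs10 share their strand with another annotated gene over part of their locus, and Bcl2, Hopx, Lef1 and Tspan32 have an antisense neighbour. Whether the counting used strand is not given in the sources used here, so counts of these genes are less certain. Alternatives were other gate limits, UMI minimums, folds and scalings, free RNA subtracted, cells by Xist or Y-linked transcripts, and cells left out.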

Additional observations from a re-analysis of the deposited data

How the results depend on the processing

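With 65 and 74 cells and 1 library per genotype, precision is set by counting error within a library, and spread between animals was not measured. No paired analysis was possible because each genotype has 1 library and the labels carry no replicate numbers. Between libraries, the counts of genes higher and lower stayed within 108 to 138 and 65 to 107 under the other gate limits, scalings, free RNA subtraction, doublets left out and Foxp3 cells left out. Shares of gated cells ranged over 3.33 to 4.56% in the flox and 3.41 to 4.48% in the knockout library, and Foxp3 shares over 1.54 to 3.13% and 1.35 to 4.62%.

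The counts of genes past the limit moved by over 1.5 times with the UMI minimum and the fold, by the construction of these settings. At 20 UMIs 529 and 438 genes stood higher and lower in the knockout library, 35 and 63 against the CD8 gate and 37 and 276 against the effector gate. At 100 UMIs these were 47 and 14, 2 and 13, and 9 and 54. Past 2-fold, 32 and 11 differed between libraries. At 1.5-fold in both libraries 47 and 61 differed from the CD8 gate and 57 and 287 from the effector gate. In cells with Xist alone 74 and 33 of 567 genes differed, and in those with Y-linked transcripts alone 34 and 19 of 453, where fewer cells leave fewer genes measured. With no effector gene UMI allowed, 7 genes were higher than in the CD8 gate and 5 than in the effector gate. Without the cytotoxic set 83 genes stood higher in the knockout library, and without both sets 85.

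Ratios of single genes that changed direction were as follows, and the cause was not tested beyond the cells left out. With no effector gene UMI allowed, S100a6 was at 0.760. Without Scrublet's doublets Egr1 was at 1.90. In Xist cells Stat3 was at 1.31, Fos at 1.03 and Socs1 at 1.03. In Y cells Gzma was at 0, Egr1 at 1.31, Jun at 1.31, Hsph1 at 1.19, Trim30a at 1.64 and Itgb2 at 0.238. Without the cells mixed with another type Gzma was at 0.333, Egr1 at 1.67 and Fos at 1.02. Without the cytotoxic set Gzma and Nkg7 were at 0, Ccl5 at 0.629, Itgal at 0.936 and Itgb2 at 0.762. Without both sets Gzma and Nkg7 were at 0, Ccl5 at 0.610, Egr1 at 1.78, Itgb2 at 0.739 and Fos at 1.03. The cytotoxic set was chosen on a list holding Gzma, Nkg7 and Ccl5, so their changes without it follow from that choice. Gzma is also in the natural killer list, so the same holds for it without the cells mixed with another type. Of 42 ratios of named genes, 26 moved by less than their counting interval without both sets, 10 moved further and 6 changed direction.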

Other observations

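Among the gated cells thinned to 1500 UMIs, the variance to mean ratio was highest for Ccl5, at 43.2 in the flox and 32.8 in the knockout library. The nuclear RNA Malat1 followed at 9.39 and 8.24, and the actin gene Actb at 4.74 and 19.9. Tmsb4x, an actin-binding peptide gene, was at 2.92 and 3.92, the surface antigen gene Cd52 at 2.51 and 3.92, and Junb at 2.17 and 3.19. Igfbp4, at 2.1 and 2.25, was the naive gene that varied most between cells, with 0 to 17 UMIs in the flox library. Xist, Gm12840, H2-D1, Pfn1 and the ribosomal protein genes Rps24, Rps20 and Rpl17 also ranked among the 15, with ratios of 1.85 to 2.92.

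The receptor beta constant genes differed between cells. Trbc1 had 223 and 290 UMIs and its near-identical copy Trbc2 672 and 660, so that reads shared between the copies make these counts uncertain. Among cells with at least 5 UMIs of the pair, 26 of 60 flox and 27 of 67 knockout cells had no Trbc1.

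The 2 flox and 3 knockout cells with a Foxp3 UMI were set against the other gated cells of their library over 756 genes. Vim, a filament gene of activated cells, was 5.03-fold (1.93 to 11.1) and 3.46-fold (1.53 to 6.88) higher, and Ly6e 3.10-fold (1.45 to 5.90) and 3.58-fold (1.85 to 6.36). Klf6, Gapdh, Cyba and Tmsb4x had ratios of 3.18 and 2.44, 3.09 and 2.24, 2.79 and 2.29, and 1.37 in both. Emb had 1 UMI against 228 and 0 against 179, and Rps29 a ratio of 0.822 and 0.817. With so few cells these are values of single cells, with no replicate check.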
